A study of Homo sapiens with 4 samples.

Results

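The genes described here are NRAS, BRAF, MDM2, MDM4, RB1, CDKN1A, CDKN1B and CDKN2C, 8 of the 20037 protein-coding genes of the RefSeq gene table (GRCh38.p14), listed because they are recurrently altered or central in myeloma. Their peaks were taken as those of either IRF3 ChIP peak list whose summit lay in the gene span or within 10 kb of it. The series held 4 samples of MM1.S, an established human myeloma cell line that stands for malignant plasma cells, grown without treatment. IRF3-bound DNA was sequenced in 2 ChIP libraries, numbered 1 and 2, each with an input library of the same number. There was 1 line, 1 antibody and no treated or knockout arm, so the comparisons are between genes and between the 2 replicates. The labels do not state whether the replicates were separate cultures, and their spread may be technical.

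IRF3 is a transcription factor known for switching on interferon and antiviral genes once nucleic-acid sensors have activated it. The 8 genes belong to 3 linked growth controls. NRAS is a small GTPase that passes growth signals to the kinase BRAF and on to the ERK kinases. MDM2 and MDM4 hold the tumour suppressor p53 in check, MDM2 as the ubiquitin ligase that marks it for destruction and MDM4 as its partner. RB1 encodes the retinoblastoma protein, which keeps E2F factors silent until cyclin-dependent kinases phosphorylate it. CDKN1A (p21), CDKN1B (p27) and CDKN2C (p18) are inhibitors of those kinases, and CDKN1A and MDM2 are textbook p53 targets.

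Peak calling used 38568845 ChIP tags in replicate 1 and 46474586 in replicate 2, and gave 41880 and 41666 peaks. Peaks of the replicates that overlapped were joined into 32246 shared regions. The fold enrichment of a peak, the ratio of ChIP pileup to local input background at its summit, is the authors' own value. Its median over all peaks was 3.90 in replicate 1 and 4.30 in replicate 2. Shared regions were ordered by the worse of their ranks in the 2 replicates, and the strength percentile given below is the place in that order, 100 being the strongest.

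The windows of the 8 genes held 31 peaks of replicate 1 and 36 peaks of replicate 2, which joined into 27 shared regions. Another 3 regions had a peak in replicate 1 only and 8 in replicate 2 only. Each of the 8 genes had a peak of each replicate in its window, as had 72.1% of all protein-coding genes in replicate 1 and 74.4% in replicate 2, and each had at least 1 shared region, as had 69.3%. A shared region had its summit within 1 kb of a start site in 6 of the 8, against 52.4% of all protein-coding genes (55.5% of those with a known strand), and reached a fold enrichment of 5 in both replicates in 5 of them, against 30.0%. CDKN1B and CDKN2C had no shared summit within 1 kb of a start site, and the NRAS region there was below 5 in replicate 1 (4.74). The 8 genes were chosen with earlier results of these data known, so these shares are descriptions and not evidence of enrichment. The 69.3% also depends on window length. It was 57.2% for windows up to 40 kb, 76.4% for those of 40 to 100 kb and 84.0% for those over 100 kb. Of the 27 shared regions, 6 lay at a start site of the gene, 11 elsewhere inside a gene span and 10 in the flanks. The median strength percentile was 96.1 for the 6 regions at start sites, the lowest being 70 at NRAS, and 49.8 for the 21 others, which ran from 0.3 to 97.2. A high place at starts is not particular to these genes. Among the 10490 protein-coding genes with a region at a start, the same NRAS region stood at percentile 39.8.

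**Figure D1:**
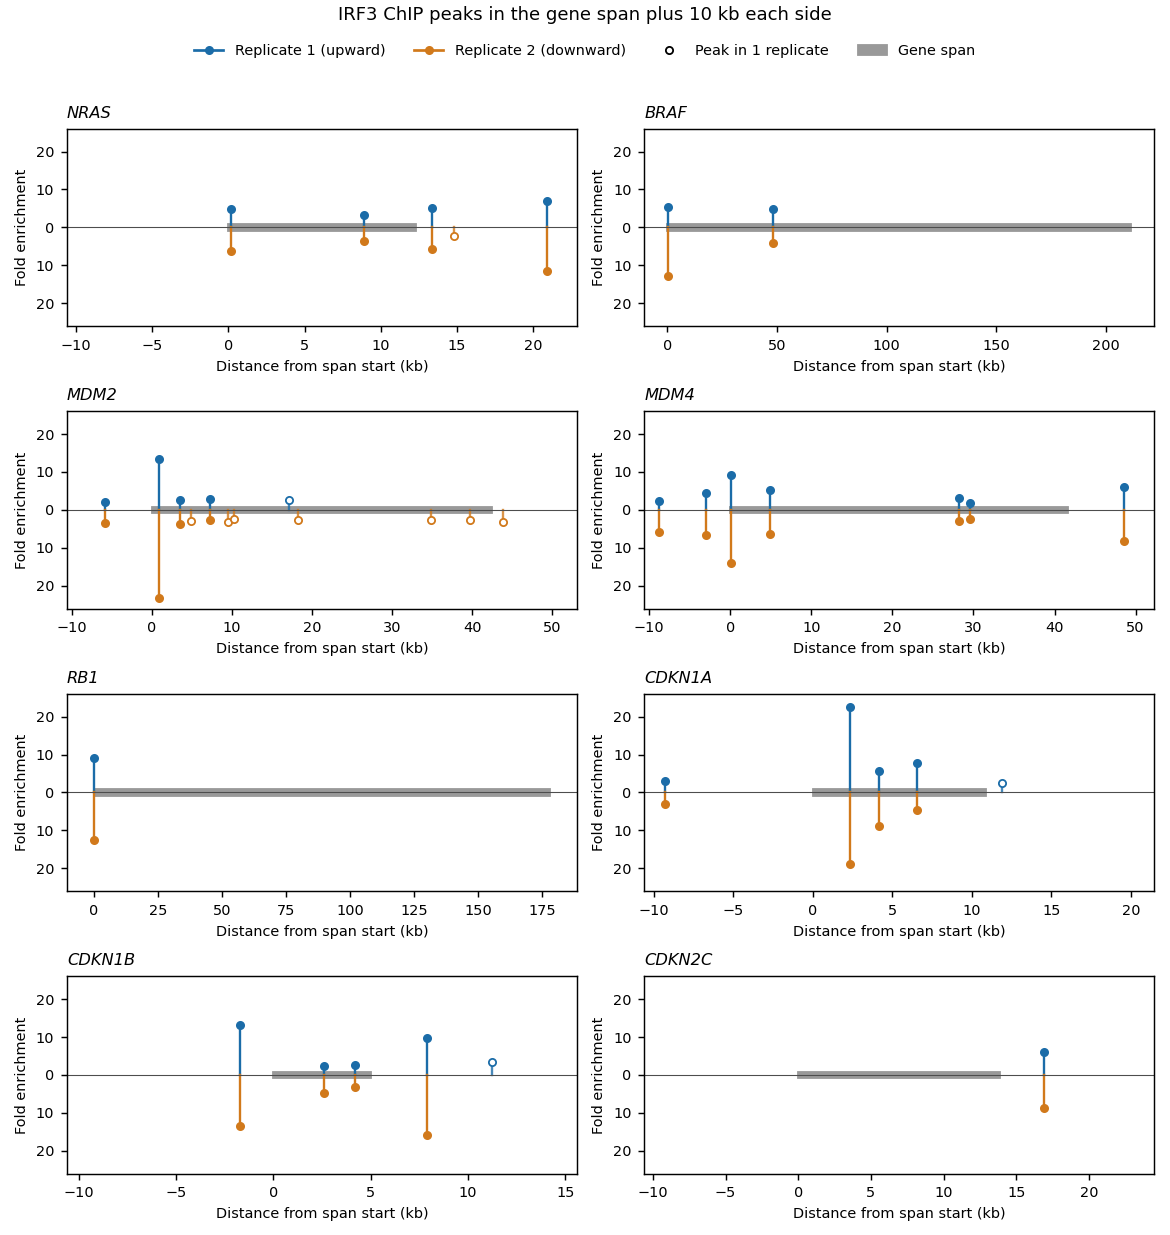
Fold enrichment of each IRF3 region (vertical axis, replicate 1 upward and replicate 2 downward, strongest peak of the region) against its distance in kb from the 5′ end of the gene span, in the direction of transcription, for the 8 genes. Filled circles are regions with a peak in both replicates, open circles those with a peak in 1. The tallest stems are those of MDM2 (23.3 in replicate 2) and CDKN1A (22.4 in replicate 1), CDKN1B has a tall stem on each side of the gene, RB1 has a single region, and CDKN2C has none inside its span.

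The start regions whose sequence helps to read the results are shown here, from RefSeq (GRCh38.p14), as the 250 bases before a start site, 5′ to 3′ on the strand of the gene. MDM2 is shown at its inner start, where the IRF3 summit fell, and the capitals mark the 20-base matches to the p53 response element (chr12:68808767-68809016, plus strand). CDKN1A is shown because it held the highest fold enrichment of replicate 1 among the 8 genes, with GGGCGG boxes, the letters read by SP and KLF factors, in capitals (chr6:36678464-36678713, plus strand). NRAS is shown with GAAA or TTTC, the half-site of IRF factors on either strand, in capitals (chr1:114716772-114717021, minus strand). CDKN2C is shown at its CpG-rich inner start, which had no peak, again with GGGCGG boxes in capitals (chr1:50968456-50968705, plus strand).
MDM2: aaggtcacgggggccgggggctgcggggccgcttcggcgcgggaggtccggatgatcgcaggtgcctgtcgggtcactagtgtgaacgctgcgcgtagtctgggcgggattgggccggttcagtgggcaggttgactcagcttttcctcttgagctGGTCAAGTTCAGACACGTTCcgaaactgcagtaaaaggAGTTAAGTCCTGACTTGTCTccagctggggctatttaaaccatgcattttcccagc
CDKN1A: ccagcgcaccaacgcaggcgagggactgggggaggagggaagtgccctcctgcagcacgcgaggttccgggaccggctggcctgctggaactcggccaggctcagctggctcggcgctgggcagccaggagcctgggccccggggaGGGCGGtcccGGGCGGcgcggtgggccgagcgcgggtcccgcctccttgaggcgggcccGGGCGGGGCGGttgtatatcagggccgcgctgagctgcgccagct
NRAS: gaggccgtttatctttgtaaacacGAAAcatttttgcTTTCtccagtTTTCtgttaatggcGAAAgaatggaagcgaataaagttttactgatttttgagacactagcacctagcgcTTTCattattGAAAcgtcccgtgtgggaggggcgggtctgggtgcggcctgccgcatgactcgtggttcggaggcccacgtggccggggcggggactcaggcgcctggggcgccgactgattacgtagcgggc
CDKN2C: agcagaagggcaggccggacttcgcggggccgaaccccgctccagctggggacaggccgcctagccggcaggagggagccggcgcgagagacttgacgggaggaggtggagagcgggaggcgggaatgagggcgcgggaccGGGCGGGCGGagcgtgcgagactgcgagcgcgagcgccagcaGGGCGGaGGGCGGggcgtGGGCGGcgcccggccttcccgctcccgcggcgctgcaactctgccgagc

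RefSeq promoter entries of 300 bases, 250 before and 50 after a start, were at hand for 13 start sites of the 8 genes. These are not 13 separate promoters, since 4 were of MDM2, in pairs of almost the same bases, and 3 of CDKN2C. The entry for RB1 is for an inner start site, and its main start region is not shown. None of the 13 held the core of the interferon-stimulated response element, a pair of GAAA half-sites with 2 bases between them, on either strand, which 3.17% of the 22175 protein-coding entries of that length held. Single GAAA or TTTC half-sites numbered 0 to 6 in the 9 entries whose start a shared region covered, with 6 at NRAS and 0 at CDKN1A, and also 0 to 6 in the 4 others, with 6 at the inner RB1 start. The median entry of all genes had 2. The GGAA or TTCC core of ETS factors, present in 95.2% of all entries, was in all 13. These counts describe letters in a window and not bound sites. The 9 covered start sites were those of NRAS, BRAF, MDM2, MDM4, CDKN1A and CDKN1B.

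MDM2 had the best-ranked start region of the 8 genes. The gene (gene ID 4193, chromosome 12, 68808172 to 68850686, plus strand) has an outer and an inner promoter, the inner one being the p53-responsive one. The shared region ran from 68806978 to 68811174, 4197 bp, and took in both. Its summit was at 68809041 in replicate 1 and 68809007 in replicate 2, and the stronger of them lay 10 bp before the inner start and 835 bp after the outer start. Fold enrichment was 13.4 in replicate 1 and 23.3 in replicate 2, with pileups of 360 and 256 fragments, and the strength percentile was 98.9.

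The inner MDM2 start sequence printed above holds 2 matches to the p53 response element. The first, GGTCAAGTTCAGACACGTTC (chr12:68808923-68808942), has 2 mismatches to the consensus and the second, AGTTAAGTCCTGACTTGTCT (chr12:68808961-68808980), has 3. They end 75 and 37 bases before the start, and the middle of the second lay 36 bp from the IRF3 summit. A match with at most 2 mismatches was present in 0.55% of all protein-coding entries and one with at most 3 in 4.73%. The entries of CDKN1B and of the inner RB1 start also had a match with 3 mismatches. The best match in the CDKN1A entry had 5. This search was added after the peaks had been seen, and whether p53 occupied these sites was not analysed here.

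Beyond its start, MDM2 carried many weak peaks. It had 5 peaks in replicate 1 and 11 in replicate 2, and its 3 shared regions beside the start region had fold enrichments of 2.15 and 3.36, 2.65 and 3.67, and 2.76 and 2.54 (replicates 1 and 2). Replicate 2 alone had 7 more peaks from 4.05 kb to 43.0 kb after the inner start, none above 3.15. MDM2 therefore accounted for 7 of the 8 regions that replicate 2 alone had in the 8 windows.

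MDM4 had the most shared regions, 7, and each of its peaks had a partner in the other replicate. The gene (gene ID 4194) lies on chromosome 1 from 204516406 to 204558120, on the plus strand. Its start region (204515770 to 204517752) had fold enrichments of 9.32 and 13.9 with a summit 105 bp after the start, at strength percentile 96.7. Regions 3.03 kb before the start (4.41 and 6.51) and 4.97 kb after it (5.17 and 6.31) flanked that one. A further region lay 48.6 kb after the start (204563897 to 204566365, 5.97 and 8.32), where its summit was 862 bp from an end of the non-coding RNA gene LRRN2-AS1.

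Inside the gene, regions 28.2 kb (3.04 and 2.88) and 29.6 kb (1.88 and 2.50) after the start were weaker than the start region, the latter being the lowest-ranked of the 7. The region farthest upstream, 8.75 kb before the start, covered a pair of lysine transfer RNA genes, TRK-TTT3-1 and TRK-TTT3-2. It was the one in which the replicates differed most in place, with summits 845 bp apart and fold enrichments of 2.37 and 5.92. Near-identical transfer RNA copies can share reads. Whether that affected these values was not tested, and they remain uncertain. In windows of 40 to 100 kb, 1.16% of the 6829 protein-coding genes had 7 or more shared regions. MDM4 was in that group, and MDM2, with 4, was among 8.99%.

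The RAS pathway genes NRAS and BRAF had weaker start regions than the p53 regulators. NRAS (gene ID 4893, chromosome 1, 114704469 to 114716771, minus strand) had 4.74 in replicate 1 and 6.21 in replicate 2 at a region from 114716182 to 114717160. Its summit lay 161 bp after the start. The strongest region in the NRAS window was a different one, 20.9 kb after the start (114694450 to 114696357, fold enrichments 6.90 and 11.6), with its summit 284 bp from the start of AMPD1, the muscle-type AMP deaminase gene. Other shared regions lay 8.91 kb (3.25 and 3.49) and 13.4 kb (5 and 5.80) after the NRAS start. The order held in both replicates, with the region at AMPD1 above the start region of NRAS.

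BRAF (gene ID 673, chromosome 7, 140713328 to 140924929, minus strand) had 2 shared regions in a window of 232 kb. The start region (140923765 to 140925366) had fold enrichments of 5.47 and 12.9, at strength percentile 79.3. Its summit lay 302 bp before the inner start site and 359 bp inside the span, and 522 bp from the start of the non-coding RNA gene LOC105375536. This region differed more between replicates than most. Its log2 ratio of replicate 2 to replicate 1 was 1.24, against quartiles of -0.11 and 0.63 over all shared regions. The other BRAF region, 47.4 kb after the inner start (140876664 to 140877235), had 4.88 and 4.08.

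RB1 (gene ID 5925, chromosome 13, 48303751 to 48481890, plus strand) had a single shared region in 198 kb. It ran from 48303287 to 48304918, with fold enrichments of 9.18 and 12.6, at strength percentile 95.5. The summits of the replicates were 2 bp apart and lay 160 bp before the start, between RB1 and the divergent non-coding RNA gene RB1-DT, whose start was 111 bp from the summit. No peak of either replicate fell elsewhere in the gene or its flanks, which take in LPAR6, a receptor gene inside the RB1 span. Among windows over 100 kb the median protein-coding gene had 2 shared regions, and 60.9% had 2 or more.

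**Figure D2:**
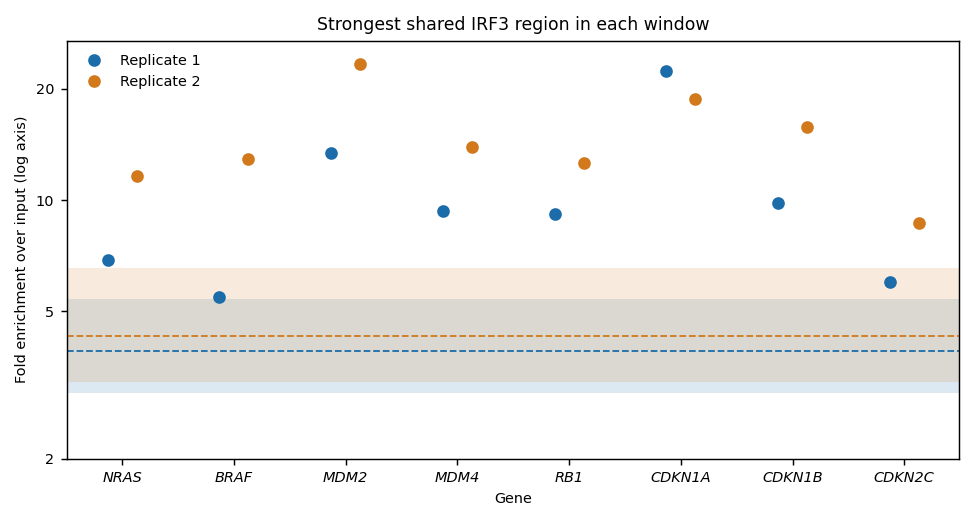
Fold enrichment over input (log axis) of the best-ranked shared region in the window of each gene, 1 point per replicate. Dashed lines and bands give the median and quartiles of all peaks of each replicate. CDKN1A is the one gene with the higher value in replicate 1 (22.4 against 18.8). The region shown for NRAS is the one at AMPD1, that of CDKN1B is downstream of the gene, and that of CDKN2C is beyond its 3′ end.

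Among the kinase inhibitor genes, CDKN1A had the strongest start region. The gene (gene ID 1026) lies on chromosome 6 from 36676463 to 36687332, on the plus strand. Its main region ran from 36678343 to 36679621, with fold enrichments of 22.4 and 18.8 and pileups of 336 and 249 fragments, at strength percentile 98.4. The summit lay 82 bp after the inner start site, the one printed above, which had 4 GGGCGG boxes where the median entry had 1. It was 2.33 kb after the outer start site, which had no peak within 1 kb, and 237 bp from the start of DINOL, a non-coding RNA gene read from the other strand. Both replicates placed the summit within 7 bp of each other.

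Inside CDKN1A the replicates ordered the next regions differently by fold enrichment. The region 1.89 kb after the inner start had 5.59 in replicate 1 and 8.98 in replicate 2, and the one 4.33 kb after it had 7.85 and 4.72. Their pileups, in that order, were 105 and 106 in replicate 1 and 75 and 63 in replicate 2. Local background, worked out as described below, was 17.9 and 12.6 in replicate 1 and 7.46 and 12.6 in replicate 2. A weak region lay 9.26 kb upstream (3.01 and 3.03), and between it and the start region no peak of either replicate was called. Of the 27 shared regions in the 8 windows, 22 had the higher fold enrichment in replicate 2 and 5 in replicate 1, beside 68.2% higher in replicate 2 over all shared regions. CDKN1A held 2 of those 5.

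CDKN1B (gene ID 1027, chromosome 12, 12717368 to 12722369, plus strand) lay between 2 wide regions, neither with a summit within 1 kb of its start. The upstream region ran from 12713806 to 12718745, 4940 bp, and covered the start site, but its summit lay 1.70 kb before it. Fold enrichments there were 13.1 and 13.4. The downstream region ran from 12722439 to 12727051 with 9.83 and 15.8, and its summit was 7.87 kb after the start, 119 bp from the start of the non-coding RNA gene LOC105369663 and 675 bp from that of APOLD1, an endothelial apolipoprotein-like gene. The strength percentiles were 96.3 and 97.2. Between them, inside the gene, 2 shared regions had 2.38 and 4.69, and 2.69 and 3.19.

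Counted by regions that cover a start site in place of summits near one, CDKN1B joined the others, giving 7 of 8 genes against 50.3% of protein-coding genes. Wide regions were few in the series, since 0.505% of all shared regions spanned 4 kb or more. The 8 windows held 3 of them, 2 at CDKN1B and 1 at MDM2. That length limit was chosen after the values had been seen. CDKN1A, NRAS and CDKN1B, all with windows up to 40 kb, had 4 shared regions each, a number that 4% of the 9023 genes with such windows reached.

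CDKN2C (gene ID 1031, chromosome 1, 50960745 to 50974634, plus strand) had no peak of either replicate inside its span or at any of its 3 start sites. One of these, printed above, has 37 CpG dinucleotides in its 300-base entry, where the median entry has 21, and 6 GGGCGG boxes. The single shared region in the window lay beyond the 3′ end (50977113 to 50978444), with fold enrichments of 6.02 and 8.65. Its summits were 557 bp apart. Upstream of it no shared region occurred for 643 kb, a stretch that takes in the whole of FAF1, a gene of 523 kb whose start is 478 bp from that of CDKN2C. The stretch held 1 peak of replicate 1 (fold enrichment 5.1) and 2 of replicate 2 (2.85 and 4.51). In all, 5.16% of protein-coding genes started in a stretch of at least that length without a shared region.

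Pileup and fold enrichment ranked the genes differently, since the local background differed between loci. That background was worked out from the deposited values as pileup plus 1, divided by fold enrichment, minus 1. Over all peaks its median was 16 fragments in replicate 1 and 10 in replicate 2. The MDM4 peaks had medians of 35.9 and 22.3, and each single MDM4 peak was at or above the 95th percentile of all peaks in its replicate (29.2 and 16.9). Peaks within 1 Mb of the MDM4 window had medians of 25.9 and 14.4. The MDM4 start region thus reached pileups of 306 and 250, close to those of CDKN1A, with a lower fold enrichment than CDKN1A in both replicates.

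The CDKN2C region had the lowest local background of the 8 genes. It was 5.98 in replicate 1 and 4.32 in replicate 2, below the 5th percentile of all peaks (6.03 and 4.64), while peaks within 1 Mb had medians of 16 and 10.1. The value in replicate 2 equals the genome-wide background of 4.32 that its tag number and fragment length give, the lowest the peak caller uses. In that replicate 3.12% of all peaks lay within 2% of this floor, and a value at the floor does not show how low the input was. In replicate 1 the genome-wide background was 3.81, so the CDKN2C value of 5.98 was above it. As background, CDKN2C lies in a part of chromosome 1 that is often lost in myeloma. Copy number was not analysed here, and a missing peak does not tell unbound DNA from DNA that gave few reads. NRAS and RB1 also lay low, with medians of 11.1 and 6.57 for NRAS and 9.67 and 6.16 for RB1. These backgrounds enter the fold enrichments by definition, and what set them was not tested.

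**Figure D3:**
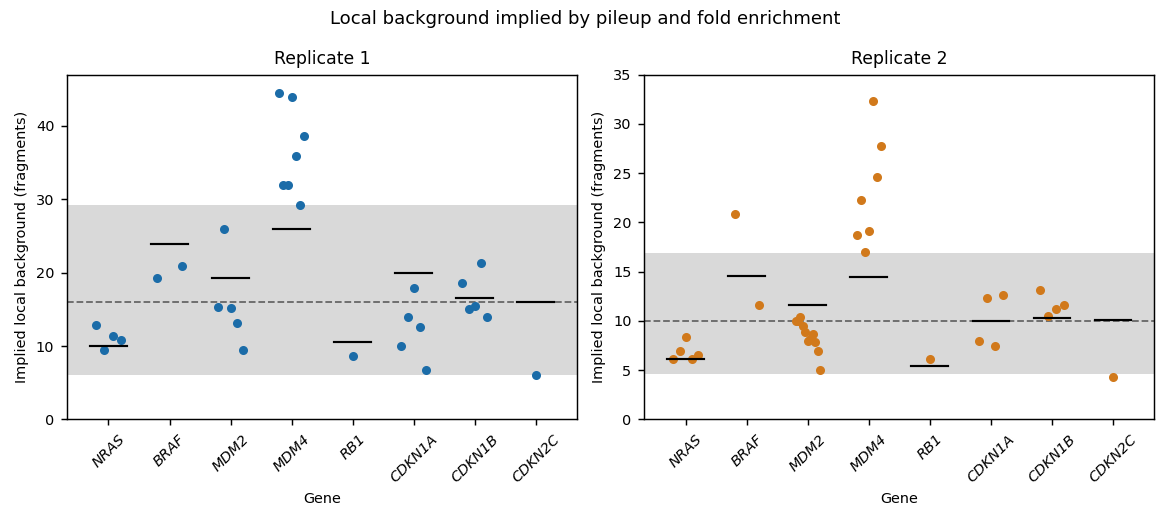
Local background in fragments implied by pileup and fold enrichment (vertical axis) at the strongest peak of each region of the 8 genes, for replicate 1 (left) and replicate 2 (right). The dashed line is the median and the grey band the 5th to 95th percentile of all peaks, and black bars are medians of peaks within 1 Mb of each window. MDM4 points sit at or above the band in both replicates and the CDKN2C point lies just below it.

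Other genes of the same pathways had IRF3 at their starts more often than not. Of 24 further RAS and MAPK genes, 19 had a shared region with its summit within 1 kb of a start site (79.2%), of 23 further p53 pathway genes 21 had one (91.3%) and of 26 further RB pathway and inhibitor genes 22 had one (84.6%), beside the 52.4% of all protein-coding genes. At a fold enrichment of 5 in both replicates the counts were 14, 15 and 15, or 58.3%, 65.2% and 57.7%, beside 30.0%. All protein-coding genes, active or not, make up that background. The lists too were chosen with earlier results of these data known, so these shares are descriptions. For PTPN11, GADD45A, CCND2 and CDKN1C, named below, no strand was known, so a start there means either end of the gene span. Strength was set among the 10490 genes with a region at a start. On that scale the list medians were 57.3 for the RAS and MAPK list, 65.9 for the p53 list (quartiles 36.3 and 87.7) and 55.8 for the RB list, while the 6 genes described above stood at 96.9 (MDM2), 95.5 (CDKN1A), 90.3 (MDM4), 87.1 (RB1), 52.9 (BRAF) and 39.8 (NRAS).

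In the RAS and MAPK list the well-ranked start regions included those of MAP2K2, the kinase below RAF (9.11 in replicate 1 and 13.7 in replicate 2), the phosphatase gene PTPN11 (9.10 and 21.2), and the BRAF relative ARAF (8.14 and 14.8), which was above BRAF in both replicates. HRAS, the relative of NRAS, had 5.20 and 6.02. NF1, the RAS-inactivating tumour suppressor, and MRAS had no peak of either replicate at a start site.

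In the p53 list the best-ranked were GADD45A, a stress gene (17.5 and 20.2), PPM1D, the phosphatase that dampens p53 (9.44 and 25.1), the kinase gene PLK3 (8.92 and 17.0) and FDXR, ferredoxin reductase (8.87 and 15.7). None of the 23 lacked a peak altogether, and BBC3 (PUMA) and TP53BP1 had one in replicate 2 alone, at 4.53 and 3.43. By the worse of the 2 ranks, MDM2 and CDKN1A stood with GADD45A, at percentile 96.3, above the other p53 targets named. By fold enrichment in replicate 2, however, PPM1D was above MDM2 (23.3), CDKN1A (18.8) and GADD45A, and SESN2 had 43.3 (8.82 in replicate 1). Low-ranked p53 targets included ZMAT3 (2.75 and 3.26, percentile 5.7) and FAS (3.39 and 6.21, percentile 15.2).

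In the RB list LIN54, a subunit of the complex that RB relatives join, had 24.1 and 38.5, above any of the 8 genes in both replicates. Cyclin D2, encoded by CCND2, had 22.0 and 27.2, RBL1, the RB relative p107, had 12.7 and 16.8, and E2F2 had 10.5 and 16.8. RBL1 was thus above RB1 in both replicates. The inhibitor genes CDKN2A and CDKN2B, neighbours on chromosome 9, had no peak of either replicate at a start site, as was the case for CDKN2C. Of that inhibitor family CDKN2D had a start region (3.99 and 11.0), and CDKN1C, the relative of CDKN1A and CDKN1B, had a peak at a start in replicate 2 alone (7.32).

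**Figure D4:**
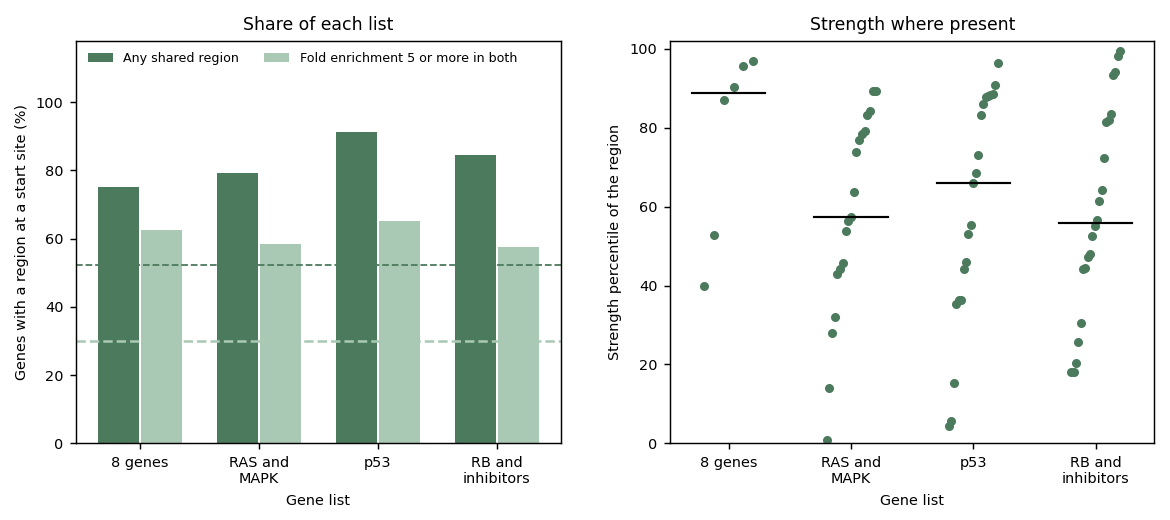
Left, percentage of genes in each list with a shared IRF3 region at a start site (dark bars) and with one of fold enrichment 5 or more in both replicates (light bars), with dashed lines at 52.4% and 30.0% for all protein-coding genes. Right, strength percentile of each gene with such a region among all 10490 such genes, with the median of each list as a black bar. Of the 8 genes, the 6 with such a region split into 4 at 87.1 or more and 2 at 52.9 or less.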

How the data were processed

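Peaks were called by the authors with MACS2 for each ChIP library against its own input at a q-value cutoff of 0.05, keeping all duplicate tags, per the file headers, which name version 2.1.2. The submitters' processing notes name MACS2 2.1.1, deepTools 3.3.1, SAMtools 1.2, Picard 2.6.0, BWA 0.7.15 and GRCh38. The deposited fold enrichment is a ratio to local background, and the deposited pileup is a signal in stacked fragments. The deposited −log10 p and −log10 q columns, whose names were damaged, were told apart by column order and values.

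Peaks overlapping by at least 1 bp between replicates were joined, and the strongest peak of each replicate gave a region its values (Python 3.11.15, numpy 2.4.6, pandas 2.3.3). The joining was tested on simulated peaks. Start sites were the 5′ end of the gene span and the starts of the RefSeq promoter table. For 4195 of the 20037 protein-coding genes that table gave no strand, and both ends were used. All 73 genes of the 3 pathway lists matched.

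No test was run, since there is 1 condition. The 8 genes and the lists were chosen with earlier results of these data known. Named genes are the 8, other genes with a start within 1 kb of a shared summit in their windows, and in each list the 4 best-ranked and those without a peak. HRAS, BBC3, TP53BP1, SESN2, ZMAT3, FAS, CDKN2D, CDKN1C, FAF1, LPAR6 and TRK-TTT3-1 were added after their values were seen. A few items that the rule named are not reported here. Alternatives covered windows, distances, overlap, thresholds and single replicates.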

Additional observations from a re-analysis of the deposited data

How the results depend on the processing

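Each of the 8 genes kept at least 1 shared region in its window under a flank of 5 kb, an overlap of at least 50%, a −log10 q of at least 5, a fold enrichment of at least 5 and with either replicate left out, and 6 had one in the gene span alone. Of the 27 shared regions, 16 lay in the spans alone, where replicate 1 had 18 peaks and replicate 2 had 22, against 31 and 36 with the flanks. With a minimum fold enrichment of 5 the windows held 12 shared regions, 13 peaks of replicate 1 and 17 of replicate 2. Without one of the replicates, the count of regions was 31 to 36. The number of genes with a shared region at a start site ran from 5 to 7 over all settings, those with 1 replicate left out giving 6. It was 5 at a fold enrichment of at least 5, where NRAS was lost, and 5 when the start of the span alone counted, where CDKN1A was lost. The settings that used region cover and the span start alone were chosen after seeing the data. No paired analysis was possible because no result comes from a test between groups and the input libraries entered through the peak calls alone. Expression, copy number and input signal away from peaks were not analysed here, nor was the placing of reads between the transfer RNA copies at MDM4.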
